A study of Mus musculus with 2 samples.

Results

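The nuclear-encoded respiratory chain genes described here are the genes whose symbols in the count tables begin with Nduf, Uqcr, Cox4i, Cox5, Cox6, Cox7, Cox8 or Atp5, or with Sdh followed by a, b, c or d, without Cox7a1 and without pseudogene names ending in -ps. The rule found 99 of 56980 genes and used no measured value. Nuclei had been isolated from VAT, the visceral (gonadal) fat, of 2 female C57BL/6J mice aged 2 months, with no treatment or genetic change named, and 1 single-nucleus library was sequenced from each mouse, here called replicate 1 and replicate 2. Nuclei with over 500 genes, over 1000 unique molecular identifiers (UMIs, each marking 1 captured RNA molecule) and under 15% of UMIs from the mitochondrial genome were kept, which left 2833 of 7344 called nuclei with 8466237 UMIs in replicate 1 and 12225 of 17148 with 48068273 UMIs in replicate 2. The libraries shared 27 cell barcodes.

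The respiratory chain sits in the inner mitochondrial membrane, where complexes I (NADH dehydrogenase), III (cytochrome bc1) and IV (cytochrome c oxidase) pass electrons from NADH to oxygen and pump protons, complex II (succinate dehydrogenase) feeds electrons in from succinate, and complex V (ATP synthase) uses the proton gradient to make ATP. Most subunits are encoded in the nucleus and imported, while a small set is encoded by mitochondrial DNA. In adipose tissue this capacity is known to be high in brown and beige adipocytes, which burn fuel for heat through Ucp1 and express Cidea, and lower in white adipocytes.

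Of the 99 genes, 41 belonged to complex I, 4 to complex II, 8 to complex III, 20 to complex IV and 18 to complex V, and 8 were the complex I assembly factors Ndufaf1 to Ndufaf8, which build the complex and are no part of it. The complex I genes included 4 copies with the look of retrogenes (Ndufa11b, Ndufb11b, Ndufb4c, Ndufs6b), and the complex IV genes included the copy Cox6c2 and 7 paralogs restricted to certain tissues or conditions (Cox4i2, Cox6a2, Cox6b2, Cox7b2, Cox8b, Cox8c, Ndufa4l2). Ndufa4 and Ndufa4l2 were placed in complex IV, which Ndufa4 is known to join. Ndufa13 and Ndufb4c had no UMI in either library, and 11 others had 1 to 300 UMIs, mostly copies and paralogs. Ndufb8 had 65 UMIs and shares 11.3% of its exon bases with Gm20538, and Ndufa13 shares 0.626% with Yjefn3. Ndufc1, Ndufb9 and Ndufb2 share 5.28%, 3.31% and 1.26% with other genes and had 1161, 2084 and 1259 UMIs. The part of overlap in the low counts was not tested, and the values of Ndufb8 and Ndufa13 are uncertain. Atp5o stood in the tables under 2 identifiers, ENSMUSG00000116933 with 1629 UMIs and ENSMUSG00000022956 with 349, whose exons overlap, and both are uncertain. After a filter on low counts 88 of the 99 were tested between cell types and 88, not the same set, in the comparison by Cidea.

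The libraries stood apart before any comparison. Mitochondrially encoded RNA made up a median of 6.2% of the UMIs of a nucleus in replicate 1 and 0.621% in replicate 2. Summed over all kept nuclei, the 99 genes took 6017 counts per 1000000 UMIs (CPM) in replicate 1 and 3716 CPM in replicate 2, ribosomal protein genes 3389 and 1972, and mitochondrially encoded genes 66539 and 7353. The assembly factors went the other way, with 164 and 195 CPM. The ratio of replicate 1 to replicate 2 also varied with the length of the gene on the chromosome (its span, introns included). Over the 97 genes with UMIs in both libraries, the ratio was lower at larger spans, with a Spearman rho of -0.52, and over 13023 genes of all kinds at -0.58. Below the members' median span of 8888 bases the median log2 ratio was 0.99, and above it 0.44. These correlations run across genes of the same 2 libraries, and genes are not independent replicates. Mouse and library cannot be told apart here, so levels are given for each library and the comparisons are made within libraries.

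Every complex was represented among the well-measured genes, and small subunits of complex IV led once transcript length was considered. Levels are given over all kept nuclei, for replicate 1 and then replicate 2. In complex I, Ndufs4, an accessory subunit needed for its stability, had 176 and 191 CPM, the iron-sulfur subunit Ndufs1 had 102 and 123, and Ndufb3, a small membrane-arm subunit, had 114 and 55.9. In complex II, the flavoprotein Sdha had 187 and 167, the membrane anchor Sdhc 77 and 59.3, and the iron-sulfur subunit Sdhb 70.5 and 67.4. In complex III, the core subunit Uqcrc2 had 92.6 and 96.9, and the small subunits Uqcrh and Uqcrq 95 and 57, and 83.9 and 41.2. The larger genes of these sets were thus alike in both libraries, and the small ones were higher in replicate 1. In complex IV, Cox6a1 had 231 and 62.9, Cox4i1 228 and 90.1, and Cox6c 123 and 62.8. In complex V, the catalytic subunit Atp5b had 277 and 133, its partner Atp5a1 211 and 123, and the central stalk subunit Atp5c1 138 and 127.

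Between genes, levels were compared only per kilobase of the canonical transcript. On that scale the mean of the libraries was highest for 3 subunits of complex IV, Cox6a1 with 405 and 110 CPM per kb, Cox4i1 with 291 and 115 and Cox6c with 245 and 125. Atp5b reached 144 and 69, Sdha 60.8 and 54.4, Uqcrc2 39.9 and 41.8, and Ndufs4 43.5 and 47.2. The order of Cox6a1, Cox4i1 and Cox6c was opposite in the libraries, so the spread of the mice does not separate them. The paralog Cox8b, the heart, muscle and brown fat form of subunit 8, stood at 18.1 and 7.97 CPM, and Cox7b2, a form best known from testis, at 2.36 and 3.91.

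The start-site regions of the genes were read from RefSeq on GRCm38.p6 as windows of 300 bases, 250 before to 50 after the start. They are an annotation on another build than the counts, which are on GRCm39. Of 98 member symbols 76 matched, with 81 windows, against 32851 windows of all genes. The NRF1 motif GCATGCGC was in 14.8% of the members' windows and 2.71% of all windows, the ETS motif CCGGAAG of the family of Gabpa in 23.5% and 8.86%, and the YY1 motif AAGATGGCG in 9.88% and 1.4%. The ERR motif AAGGTCA, bound by Esrra and Esrrg, was in 9.88% and 4.72%, and its longer form TCAAGGTCA, which contains it, in 2.47% and 0.423%. The GC box GGGCGG was in 44.4% and 35.7%, and TATAAA in 11.1% and 13.6%. Both strands were searched. A match describes letters and shows no binding. Shown are 5 windows of genes that recur in the comparisons, 5′ to 3′ along the gene, with the matches to these motifs in capitals except the GC box, which is left in lower case. Cox6a1 (chr5:115348909-115349208, minus strand) holds overlapping NRF1 matches on both strands and ETS, Sdhb (chr4:140961021-140961320, plus strand) NRF1 and ETS, Sdhd (chr9:50603800-50604099, minus strand) ETS and the long ERR motif, Ndufs4 (chr13:114388045-114388344, minus strand) YY1, and Cox8b (chr7:140900397-140900696, minus strand) TATAAA alone.
Cox6a1: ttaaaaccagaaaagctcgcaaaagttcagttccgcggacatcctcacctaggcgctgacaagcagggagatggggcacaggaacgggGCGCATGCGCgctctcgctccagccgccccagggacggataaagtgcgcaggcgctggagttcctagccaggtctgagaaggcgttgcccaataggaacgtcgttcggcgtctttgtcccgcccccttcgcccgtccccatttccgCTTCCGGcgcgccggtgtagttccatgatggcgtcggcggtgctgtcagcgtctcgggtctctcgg
Sdhb: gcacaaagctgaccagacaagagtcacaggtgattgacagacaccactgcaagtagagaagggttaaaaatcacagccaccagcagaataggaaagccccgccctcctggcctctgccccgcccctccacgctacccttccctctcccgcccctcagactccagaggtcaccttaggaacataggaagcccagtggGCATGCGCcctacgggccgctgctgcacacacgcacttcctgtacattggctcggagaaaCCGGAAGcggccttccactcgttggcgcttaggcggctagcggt
Sdhd: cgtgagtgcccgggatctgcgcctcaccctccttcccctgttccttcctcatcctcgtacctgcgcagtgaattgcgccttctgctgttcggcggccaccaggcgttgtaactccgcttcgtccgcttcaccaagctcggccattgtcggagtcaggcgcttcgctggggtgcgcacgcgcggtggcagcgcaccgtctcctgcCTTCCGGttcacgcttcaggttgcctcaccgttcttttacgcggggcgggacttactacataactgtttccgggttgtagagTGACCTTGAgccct
Ndufs4: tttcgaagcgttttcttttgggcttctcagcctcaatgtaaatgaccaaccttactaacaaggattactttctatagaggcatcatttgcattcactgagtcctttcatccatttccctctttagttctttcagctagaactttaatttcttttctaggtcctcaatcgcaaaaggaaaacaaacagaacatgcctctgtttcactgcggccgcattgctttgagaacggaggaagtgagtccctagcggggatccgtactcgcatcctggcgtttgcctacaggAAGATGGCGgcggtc
Cox8b: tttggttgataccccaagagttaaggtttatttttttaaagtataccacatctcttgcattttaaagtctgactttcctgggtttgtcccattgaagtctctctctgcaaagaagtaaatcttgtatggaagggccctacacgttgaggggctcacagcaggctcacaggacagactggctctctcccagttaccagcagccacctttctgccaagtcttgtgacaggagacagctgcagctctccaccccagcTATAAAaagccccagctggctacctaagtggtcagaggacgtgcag

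Nuclei were clustered without the 99 genes, and 6 classes were named from their markers. They are adipocyte-like, fibro-adipogenic progenitor (FAP)-like, mesothelial-like, immune-like, endothelial-like and mural-like, and the suffix is left out from here on. Replicate 1 and replicate 2 held 1986 and 6981 adipocyte nuclei, 257 and 1329 FAP, 243 and 2121 mesothelial, 226 and 1091 immune, 70 and 502 endothelial, and 23 and 158 mural nuclei. A finer clustering set apart 1597 nuclei with no set of markers, at a median of 1438 UMIs against 3734 in the adipocyte class. Most of these lay in the adipocyte class, which held 1757 and 5626 nuclei without them. They were kept in the main tests and left out in an alternative added after the data were seen. The samples are labelled as adipocytes, and the other classes were present all the same. The 10 adipocyte markers summed to 21072 and 26069 CPM in the adipocyte class, Ghr being the most abundant at 11326 and 17712, and to between 4311 and 9753 in the other classes. A cluster of 71 nuclei led by Saa3, Prg4 and Alox15 stayed unnamed and entered no test. By the rule that named the classes, the mesothelial cluster also held 6 of 10 FAP markers. All 10 summed to 10135 and 6924 CPM there against 15992 and 8529.5 in FAPs, with Dcn the most abundant in both classes.

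In CPM, the respiratory chain genes were highest in adipocytes in replicate 1 and in endothelial nuclei in replicate 2. Adipocytes had 6313 and 3756 CPM (mean 5035 ± 1808, SD, n = 2), endothelial nuclei 6217 and 6547 (6382 ± 234), mural nuclei 5854 and 2936 (4395 ± 2064), immune nuclei 5240.2 and 3415 (4328 ± 1290.3), mesothelial nuclei 4927 and 3449 (4188 ± 1045), and FAPs 4279 and 2939 (3609 ± 947). The order of the classes thus differed between the mice. FAPs were lowest in replicate 1, and FAPs and mural nuclei in replicate 2. Of the 6 classes the endothelial one alone was higher in replicate 2 than in replicate 1, and the SDs of neighbouring classes overlapped. A median adipocyte nucleus held 14 and 16 UMIs of the 99 genes, and 0.352% and 1.89% of adipocyte nuclei held none, so the tests were made on sums over nuclei.

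**Figure D1:**
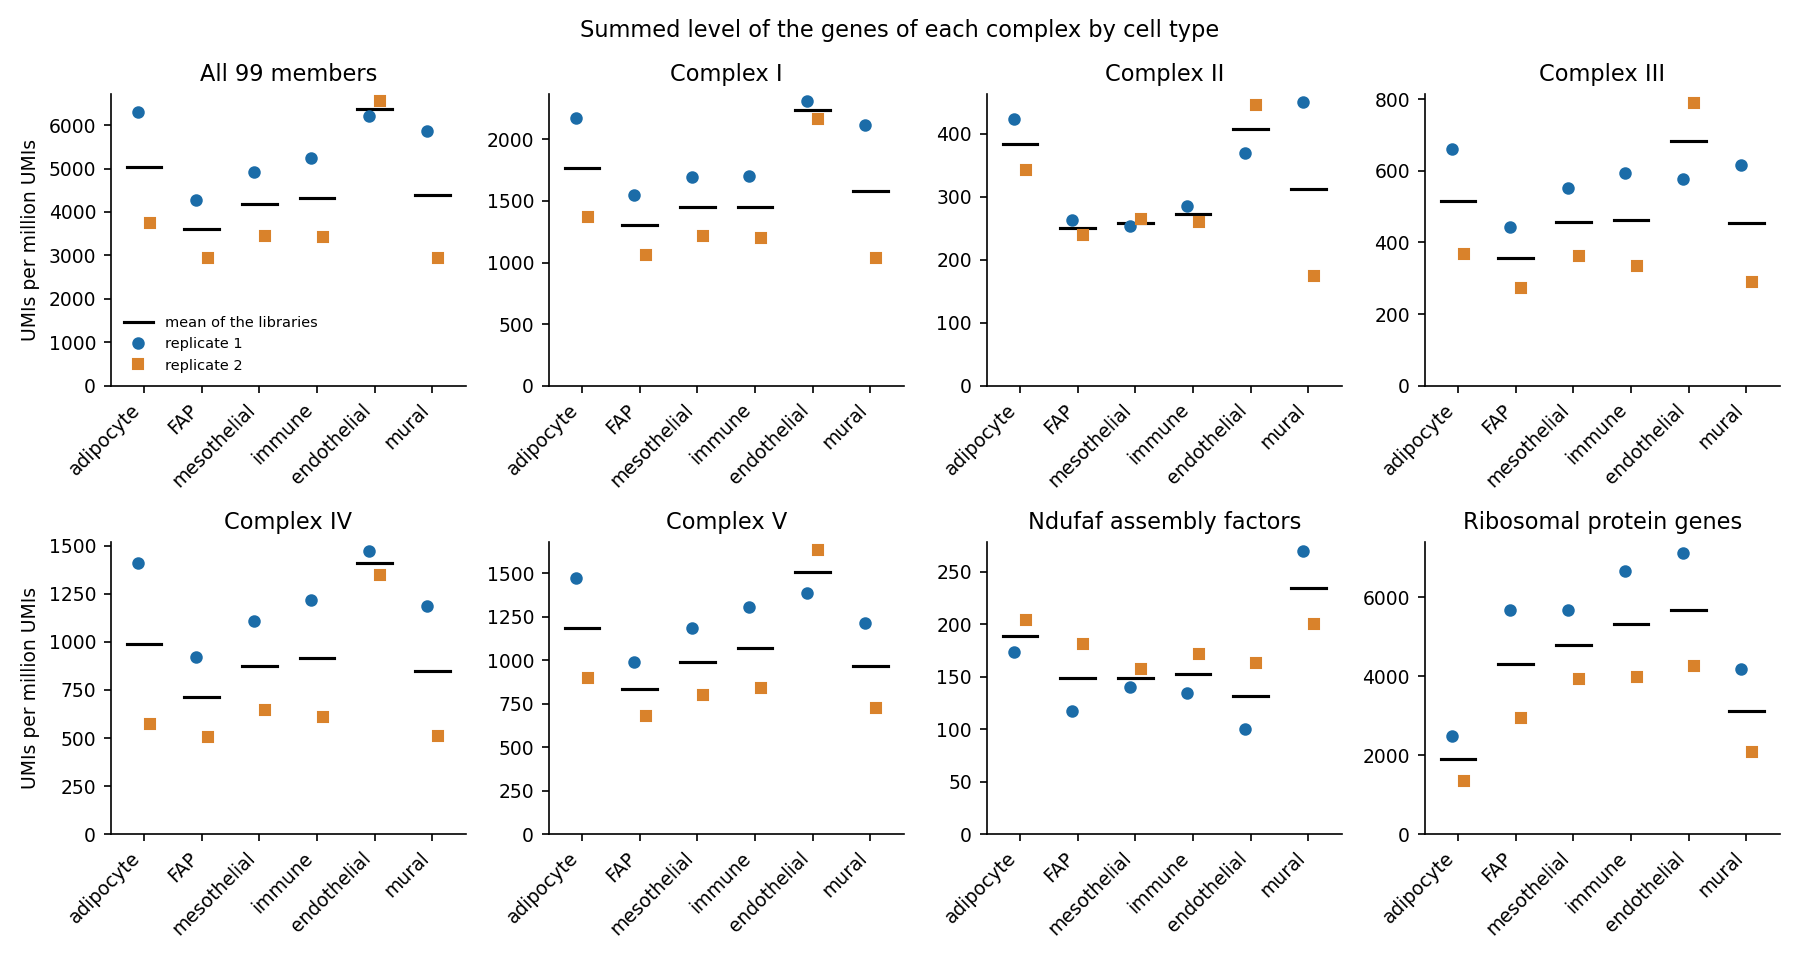
Level of each group of genes (CPM, linear axis from 0) in the 6 cell classes, with 1 point per replicate and a line at their mean, for all 99 genes, complexes I to V, the Ndufaf assembly factors and ribosomal protein genes. Endothelial nuclei are at 6217 and 6547 CPM for all 99 genes, while the other 5 classes are lower in replicate 2 than in replicate 1.

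To ask which class expressed the genes most, each class was tested against the mean of the others with edgeR's quasi-likelihood test on summed UMIs, with the library as a block and Benjamini-Hochberg adjustment over 13791 genes. A gene was called at an adjusted p under 0.05. Fold changes include the tool's normalisation between sums and can differ from ratios of CPM. The classes were drawn from the same nuclei, though not from these genes. Each class is compared with a mean that contains the others, so the 6 comparisons share their samples.

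Against the mean of the other classes, part of the respiratory chain genes were higher in adipocytes by normalised fold changes, while in plain CPM the libraries differed, and the share and size were larger for the cycle and fatty acid oxidation genes that feed the chain. Of the 88 genes tested, 28 were higher and 4 lower in adipocytes by edgeR's quasi-likelihood test, or 31.8% and 4.55%, against 23.1% and 23.7% of all genes. The share of higher genes was thus a little above the background and that of lower genes well below it. The median log2 fold change was 0.40 against -0.05 over all genes. With each library alone 63 of the 88 were above 0 in both, and 27 of the 28 called higher. Of all genes 5864 of 13791 were above 0 in both, and 3187 of the 3190 called higher. The calls came from these same libraries. In CPM, without normalisation factors, of 97 genes with a UMI in both, 67 were above the mean of the other 5 classes in replicate 1 and 31 in replicate 2, with 28 higher and 27 lower in both.

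By complex, 11 of 35 tested complex I genes were higher, 2 of 4 of complex II, 2 of 8 of complex III, 6 of 17 of complex IV, 6 of 17 of complex V and 1 of 7 assembly factors. Atp5c1 stood at 157 and 143 CPM in adipocytes and rose by 1.21 on the log2 scale (SE 0.17, adjusted p = 5.3e-08, edgeR). Ndufaf4, an assembly factor of complex I, stood at 50 and 77.7 CPM in adipocytes (log2 1.18, SE 0.20, adjusted p = 2.4e-06, edgeR). Atp5l, a membrane subunit of the ATP synthase, had 34.2 and 43.9 CPM (log2 1.17, SE 0.24, adjusted p = 6.3e-05, edgeR). Sdhb had 80.4 and 73.9 CPM (log2 1.12, SE 0.20, adjusted p = 5.7e-06, edgeR). All 4 were higher in both libraries taken alone. Ndufs4 with 194 and 215 CPM (log2 0.98), Uqcrc2 with 103 and 109 (0.92) and Sdha with 203 and 181 (0.76) also rose, at adjusted p of 7.0e-07, 2.1e-05 and 8.9e-05 by edgeR. Cox6a1, the gene with the highest mean of the libraries per length, was not called, with 234 and 55.4 CPM and a log2 value of 0.06 (adjusted p = 0.799, edgeR).

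The genes lower in adipocytes were 3 of the restricted paralogs and Atp5o. Ndufa4l2, a relative of Ndufa4 known to be induced by low oxygen, stood at 0.154 and 0.2 CPM in adipocytes (log2 -3.52, SE 0.72, adjusted p = 5.8e-05, edgeR). Cox6b2, a testis form, stood at 1.7 and 1.2 (-1.94, adjusted p = 0.00693, edgeR), and Cox4i2, the oxygen-sensitive form of subunit 4, at 1.23 and 1.71 (-1.75, adjusted p = 0.00311, edgeR). Each of these 3 was lower in both libraries alone. Atp5o under ENSMUSG00000116933 had 19.1 and 24.8 CPM (-0.65, adjusted p = 0.0169, edgeR), and its overlap with other genes makes the value uncertain. Cox8b went against them among the paralogs, with 20.7 and 8.04 CPM (log2 1.04, SE 0.40, adjusted p = 0.0268, edgeR), higher in both libraries alone.

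The lists around the chain moved further. Of the tricarboxylic acid cycle genes, which make NADH and succinate, 15 of 16 rose in adipocytes (median log2 0.87), of the fatty acid oxidation genes 12 of 14 with 1 lower (0.98), of the electron carriers 12 of 17 (0.82), of the other assembly factors 15 of 37 (0.50), of the regulators of mitochondrial biogenesis 7 of 14 (0.64), and of the thermogenic genes 8 of 12 (1.20). The carrier list held genes that make coenzyme Q or carry electrons to it. It also held Cycs, which is cytochrome c, and Cyc1, a complex III subunit outside the rule. Dlat, a subunit of the pyruvate dehydrogenase complex, had 315 and 360 CPM and rose by 1.83 (adjusted p = 2.4e-14, edgeR), and Cs, citrate synthase, had 332 and 288 and rose by 1.34 (adjusted p = 1.7e-10, edgeR). Acadm, which oxidises medium-chain acyl-CoA, had 141 and 155 CPM and rose by 1.38 (adjusted p = 7.4e-10, edgeR), while Cpt1a, the liver form of the enzyme that admits fatty acids to mitochondria, had 11.1 and 8.18 and fell by 1.66 (adjusted p = 3.4e-06, edgeR). These enzymes were alike in level in both libraries. Ppargc1b and Ppargc1a, coactivators of mitochondrial genes, had 237 and 264 CPM and 69.3 and 102, with log2 fold changes of 1.96 and 1.79 (adjusted p = 1.6e-14 and 3.7e-10, edgeR), and the nuclear receptor Esrra had 77.8 and 95.9 CPM and 1.26 (adjusted p = 1.5e-07, edgeR). Coq3, a methyltransferase of coenzyme Q synthesis, had 56.6 and 78.2 CPM (1.42, adjusted p = 3.7e-08, edgeR), and Higd1a, a complex IV partner, 21.9 and 35.8 (1.64, adjusted p = 4.2e-06, edgeR).

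Ribosomal protein genes, another set of nuclear genes, went the other way. None of 64 was higher and 41 were lower in adipocytes by edgeR's quasi-likelihood test (median log2 -0.84), with 2 higher and 42 lower at an unadjusted p under 0.05 and 0 higher and 43 lower by DESeq2. Of the mitochondrially encoded subunits mt-Nd4l, mt-Co2, mt-Co3, mt-Atp6 and mt-Atp8 were at 0 to 1.78 CPM in every class and entered no test. None encoded for complex V was thus tested, and of complex IV only mt-Co1. Of the 8 tested 0 were higher and 1 lower by edgeR (0 and 1 at an unadjusted p under 0.05, and none in either direction by DESeq2). That gene was mt-Nd6, with 31.6 and 4.28 CPM (log2 -0.86, adjusted p = 0.0314, edgeR), which was lower in replicate 2 alone and at 0.01 in replicate 1 alone.

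The count of higher genes in adipocytes was sensitive to the settings, and the direction of the median relative to all genes was not. DESeq2 called 17 of 88 higher against 15% of all genes. Leaving out the 1597 nuclei with no set of markers gave 47 of 88 against 29.1%. Plain totals without normalisation factors gave 12 against 12.9%, which is near the background, and the fit without the block 15 against 13.2%. Leaving out nuclei at or over 5% mitochondrial UMIs gave 45 of 89 against 22.7%. Removing the 6% of nuclei with the highest Scrublet doublet scores gave 64 of 90 against 26.3%. In these last alternatives the nuclei were clustered anew and the mural class, and without the high scores also the endothelial class, was not in the fit, so that the mean adipocytes were compared with changed too.

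With all kept nuclei, the endothelial class had the largest share of respiratory chain genes called among the cell classes. None of the 7 assembly factors tested was called, and no test compared them with the subunits. In edgeR's quasi-likelihood test 42 of 88 were higher and 0 lower, or 47.7% against 9.37% of all genes, and 4.08% of all genes were lower. At an unadjusted p under 0.05 there were 60 higher and 0 lower, and by DESeq2 33 and 0. The median log2 fold change was 0.80 against -0.05 over all genes, and it differed strongly between single libraries, as given in the last section. In replicate 1 alone 60 of the 88 were above 0, in replicate 2 alone 80, and 35 of the 42 called were above 0 in both. Of all genes called higher 1240 of 1292 were above 0 in both, a larger share. The calls came from these same libraries.

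Called were 17 of 35 genes of complex I (median log2 0.81), 2 of 4 of complex II (0.64), 5 of 8 of complex III (0.95), 10 of 17 of complex IV (0.90) and 8 of 17 of complex V (0.78). Of the 7 assembly factors tested none was called by edgeR, at an unadjusted p under 0.05, or by DESeq2, and their median was -0.38. Cox6a1 had 342 and 214 CPM in endothelial nuclei against 234 and 55.4 in adipocytes, and rose by 1.30 on the log2 scale against the mean of the others (SE 0.19, adjusted p = 3.9e-07, edgeR). Ndufa2, a small matrix-arm subunit of complex I, had 100 and 103 CPM (log2 1.52, SE 0.25, adjusted p = 5.3e-06, edgeR), and Ndufb6 59.2 and 66.2 (1.48, SE 0.31, adjusted p = 3.6e-04, edgeR). Ndufb11, on the X chromosome, had 22.8 and 33.1 (1.58, adjusted p = 0.00402, edgeR) and Ndufs6 27.3 and 48.1 (1.47, adjusted p = 0.00305, edgeR). All 5 were above 0 in each library alone, Ndufs6 by 0.17 and Ndufb6 by 0.50 in replicate 1 against 1.90 and 2.15 in replicate 2. Cox8b led by fold with 22.8 and 22.9 CPM (1.89, SE 0.48, adjusted p = 0.00366, edgeR), from 5 and 29 UMIs. Ndufs4, whose gene is long, was not called, with 141 and 121 CPM and a log2 value of -0.22 (adjusted p = 0.581, edgeR).

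Ribosomal protein and fatty acid oxidation genes were also called higher in endothelial nuclei, at 39.1% and 35.7% against 9.37% of all genes. Cycle and mitochondrially encoded genes stood at 18.8% and 37.5%, from 3 calls each, and thermogenic genes at 16.7%. The other lists were near or below the background, and none of these shares was tested against it. Ribosomal protein genes were higher for 25 of 64 (median log2 0.60), fatty acid oxidation genes for 5 of 14 (0.53), mitochondrially encoded subunits for 3 of 8 (0.52), cycle genes for 3 of 16 (0.49), other assembly factors for 2 of 37 (0.12) and electron carriers for 1 of 17 (0.22). DESeq2 called 18 ribosomal protein genes, 3 fatty acid oxidation genes and none of the cycle or mitochondrially encoded genes, of which edgeR had 7 and 4 at an unadjusted p under 0.05. No regulator of 14 was called by edgeR, at an unadjusted p under 0.05, or by DESeq2 (median -0.12). Thermogenic genes gave 2 higher, Cox8b among them, and 1 lower of 12. Echs1, an enzyme of fatty acid oxidation, had 100 and 117 CPM and rose by 1.24 (adjusted p = 4.3e-05, edgeR). Cycs, cytochrome c itself, had 45.5 and 27.6 and rose by 1.24 (adjusted p = 0.0198, edgeR). The complex I gene mt-Nd4 had 3019.5 and 1255 CPM (0.77, adjusted p = 0.00686, edgeR).

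In replicate 2 the high endothelial level lay in the nuclei with the most mitochondrial RNA, while in replicate 1 the level went up by smaller steps. When the endothelial nuclei of each library were split into quartiles by their share of mitochondrial UMIs, the respiratory chain genes in replicate 2 stood at 2911, 2612 and 3257 CPM in the lower quartiles and at 13760.4 in the top quartile (126 nuclei, median share 4.63%). In replicate 1 they stood at 4747, 5383, 6912 and 7693, with 17 or 18 nuclei in each quartile. In replicate 2 the top quartile had 3128 CPM for complex IV against 454 in the other quartiles, 1771 against 296 for complex III, 3495 against 697 for complex V, 4348 against 1070.4 for complex I and 841 against 247 for complex II. The assembly factors were at 177 and 156 there, and ribosomal protein genes at 8689 and 2017. The top quartile of each class and library was then left out, an alternative chosen after the values were seen. This left 1 of 87 genes called in place of 42, Cox4i2 (log2 2.21), while 8% of all genes were higher. The median less that of all genes moved from 0.85 to -0.03. The mural class was not in that fit, so the mean of the other classes changed too. With nuclei at or over 5% mitochondrial UMIs left out 0 were called by edgeR against 4.45% of all genes higher, with 12 at an unadjusted p under 0.05. The median log2 fold change was 0.35 against -0.13 over all genes. Without the top quartile Cox8b turned to -0.78, Echs1 to -0.20 and mt-Nd4 to -0.04.

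The summed endothelial markers were lower in the top quartile of both libraries, and most adipocyte markers were higher in the top quartile of replicate 2. In the top quartile of replicate 2 the 9 endothelial markers summed to 2101 CPM against 6431 in the other quartiles, and the 10 adipocyte markers to 12415 against 8414, with 12027 in the lowest quartile. Ghr made up much of these sums, and 8 of the 10 were higher in the top quartile: Adipoq (1319 against 221), Pnpla2 (768 against 86.4), Lipe (1147 against 419), Cidec (1067 against 358), Plin1 (700 against 256), Plin4 (351 against 129), Acsl1 (994 against 603) and Tshr (419 against 324). Ghr (5048 against 5317) and Adipor2 (603 against 701) were not. In replicate 1 the endothelial markers summed to 6126 against 8192 and the adipocyte markers to 6196 against 6031, with 5 of the 10 adipocyte markers higher, while Pecam1 (1259 against 972) and Vwf (448 against 263) went against the endothelial sum. In replicate 2 Flt1, a VEGF receptor, was at 351 CPM against 1351, and Ptprb at 455 against 1244. The 10 genes leading that quartile by ratio were Cfd, Ifi27l2a, Gsn, Lgals1, Hp, Dbi, mt-Nd1, Pnpla2, mt-Nd4 and Gpx3, a mixed set. The nuclei were ranked on mitochondrial UMIs, so the high mt-Nd1 and mt-Nd4 follow from the split and are no finding. Cfd (adipsin) had 10435 CPM against 855 in the other quartiles and 1287 in the adipocyte class, and Scd1, a fatty acid desaturase, 16719 against 2394 and 4639. Scd1 lies outside the leading 10, and both were picked after their values were seen. In the adipocyte class Adipoq was at 341 and Ghr at 17712. In replicate 1 the top quartile had 3944 against 2141 for Cfd and 4210.0 against 4849 for Scd1, with 4574 and 12808 in adipocytes. Single nuclei with over 10000 CPM of the respiratory chain genes made up 72 of 502 endothelial nuclei in replicate 2 (14.3%, exact 95% interval 11.4 to 17.7) and 8 of 70 in replicate 1 (11.4%), against 0.902% and 10.9% of adipocyte nuclei. The part of these markers in the endothelial result was not tested.

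**Figure D2:**
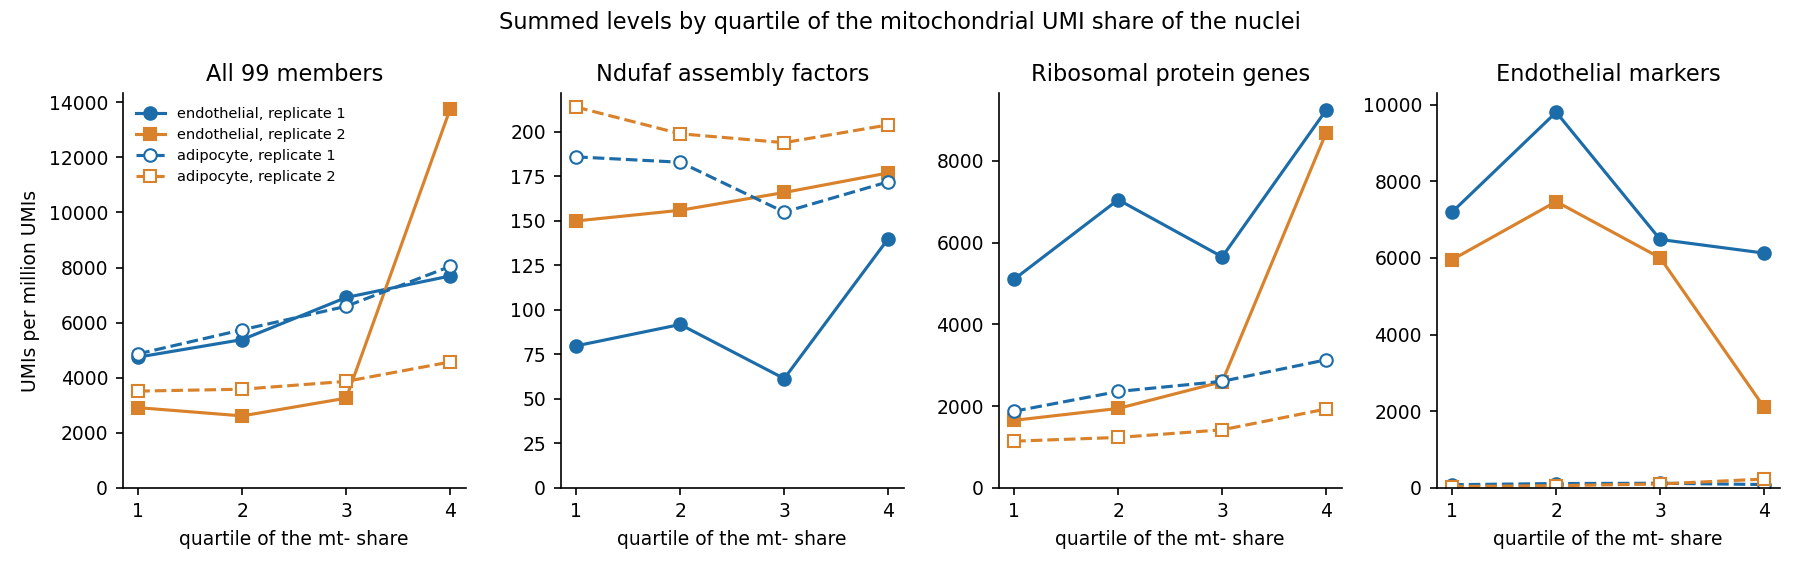
Level in CPM (linear axis) by quartile of the nuclei ranked on mitochondrial share, for endothelial (filled points, solid lines) and adipocyte nuclei (open points, dashed lines) of each replicate: all 99 genes, Ndufaf assembly factors, ribosomal protein genes and endothelial markers. In endothelial nuclei of replicate 2 the 99 genes go from 3257 in the third quartile to 13760.4 in the top quartile, and in adipocytes from 3866 to 4571.

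In adipocytes the level of the 99 genes also went with the mitochondrial share. The 99 genes stood at 4865, 5739, 6592 and 8039 CPM from the lowest to the highest quartile in replicate 1, and at 3512, 3581, 3866 and 4571 in replicate 2. Complex IV went from 930 to 2019 and from 482 to 895, while the assembly factors went from 186 to 172 and from 214 to 204. Complex II was at 373 in the lowest and 487 in the highest quartile of replicate 1, and at 345 and 331 in replicate 2. The rise along the quartiles was thus seen in both libraries for complex IV and in neither for the assembly factors. Other values moved along the same quartiles. From the lowest to the highest, ribosomal protein genes went from 1875 to 3133 CPM and from 1142 to 1929, adipocyte markers from 24442 to 17998 and from 28447 to 19649, endothelial markers from 81.6 to 85.9 and from 33 to 229, and the median depth from 2976 to 2489 UMIs and from 7022 to 1934. Their part was not tested.

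FAPs had few respiratory chain genes passing the test, and the median of the set was below that of all genes. None of the 88 was higher and 3 were lower by edgeR's quasi-likelihood test. That is 3.41% against 5.39% of all genes lower and 9.81% higher, in this fit near the background and no result about these genes. At an unadjusted p under 0.05 none was higher and 20 were lower, and DESeq2 called 0 and 2. The median log2 fold change was -0.42 against -0.03 over all genes, with 4 of 88 above 0, and 56 of 88 were below 0 in both libraries taken alone. Of all 13791 genes tested 3924 were below 0 in both. The count of lower genes moved with the settings, to 19 of 90 against 9.34% of all genes without the highest Scrublet scores. Without integration of the libraries it was 9 of 88 against 5.02%. Uqcrh, the hinge subunit of complex III, had 30.2 and 40.7 CPM in FAPs (-1.0, SE 0.25, adjusted p = 0.00234, edgeR), Cox5a 56.8 and 24.6 (-0.88, SE 0.24, adjusted p = 0.00507, edgeR) and Atp5a1 147 and 91.7 (-0.53, SE 0.19, adjusted p = 0.0493, edgeR), each lower in both libraries alone. Cycle genes gave 3 lower of 16, with Cs at 108 and 115 CPM (-0.67, adjusted p = 0.00667, edgeR), regulators 1 lower of 14, thermogenic genes 1 higher and 1 lower of 12, and ribosomal protein genes 1 higher of 64. Ebf2, a factor of the thermogenic list that also marks progenitors, was the higher one, with 1549 and 1519.7 CPM (3.46, adjusted p = 3.3e-24, edgeR).

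Mesothelial and immune nuclei were close to the mean of the other classes. In mesothelial nuclei 1 of 88 was higher and 1 lower by edgeR, against 12.8% and 5.50% of all genes, with a median log2 fold change of -0.08 against 0.01. Cox6b2 was the higher one, with 8.55 and 19.2 CPM from 5 and 100 UMIs (2.01, SE 0.48, adjusted p = 0.00116, edgeR), and Uqcrc2 the lower one, with 41 and 57.1 CPM (-0.62, adjusted p = 0.0377, edgeR). In immune nuclei 0 were higher and 1 lower by edgeR, against 13.6% and 10.4%, with 2 and 5 at an unadjusted p under 0.05 and 1 and 0 by DESeq2, and a median of -0.17 against -0.01. That gene was Uqcr11, a small complex III subunit, with 48.3 and 25.6 CPM (-0.82, SE 0.28, adjusted p = 0.0247, edgeR). All 3 had the same direction in both libraries alone. Both shares are below the background. Of ribosomal protein genes, in contrast, 16 and 17 of 64 were higher in mesothelial and immune nuclei. Mesothelial nuclei had 1 of 8 mitochondrially encoded subunits higher and 1 gene lower in each of the fatty acid oxidation, regulator and thermogenic lists, and immune nuclei 1 fatty acid oxidation gene higher, 1 cycle gene lower and 2 thermogenic genes lower. Cpt1a, low in adipocytes, was high in immune nuclei with 46.2 and 72 CPM (1.30, adjusted p = 9.2e-05, edgeR), and mt-Nd1 was high in mesothelial nuclei with 4626 and 878 (0.69, adjusted p = 0.0145, edgeR), and at -0.04 with nuclei at or over 5% mitochondrial UMIs left out. In that alternative the nuclei were clustered anew, and the mesothelial class held 76 and 3245 nuclei in place of 243 and 2121. The limit and the changed class cannot be told apart there.

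In mural nuclei, smooth muscle cells and pericytes of the vessel wall, 2 of the 4 restricted paralogs tested were called higher, Ndufa4l2 and Cox4i2. Cox8b (log2 -2.01) and Cox6b2 (-0.05) were not called by edgeR. Of 88 genes 2 were higher and 1 lower by edgeR, against 5.62% and 3.40% of all genes, so the count itself is no result about the set, and the median log2 fold change was -0.46 against -0.10. Ndufa4l2 had 75.1 and 31.9 CPM in mural nuclei, against 13.7 and 2.36 in endothelial nuclei, 0 and 1.43 in FAPs and 0.154 and 0.2 in adipocytes. It rose by 5.06 on the log2 scale (SE 0.73, adjusted p = 4.4e-07, edgeR). Cox4i2 had 15 and 26.1 CPM in mural nuclei, 13.7 and 7.09 in endothelial nuclei and 1.23 and 1.71 in adipocytes, and rose by 2.50 (SE 0.74, adjusted p = 0.0216, edgeR). Both were above 0 in each library alone and highest in mural nuclei in both. They rest on few molecules, 5 and 11 UMIs for Ndufa4l2 and 1 and 9 for Cox4i2, from 23 and 158 nuclei. Uqcrfs1, the iron-sulfur protein of complex III, had 30 and 11.6 CPM from 2 and 4 UMIs (-1.76, adjusted p = 0.0495, edgeR), and DESeq2 called no gene of the set lower.

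The class held markers of both wall cell types, with smooth muscle markers at 6395 and 3892 CPM (Myh11 the most abundant at 1891 and 1773) and pericyte markers at 4473 and 3167. Around the chain, 3 of 8 mitochondrially encoded subunits, 4 of 64 ribosomal protein genes, 2 of 14 fatty acid oxidation genes and 1 of 17 electron carriers were lower, and 1 of 12 thermogenic genes was higher. Echs1 had 30 and 14.5 CPM in mural nuclei (-2.02, adjusted p = 0.00278, edgeR). The direction of the members' median was not stable here. Less that of all genes it was -0.35, and it was 0.30 in replicate 1 alone and 0.09 without the filter on low counts.

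**Figure D3:**
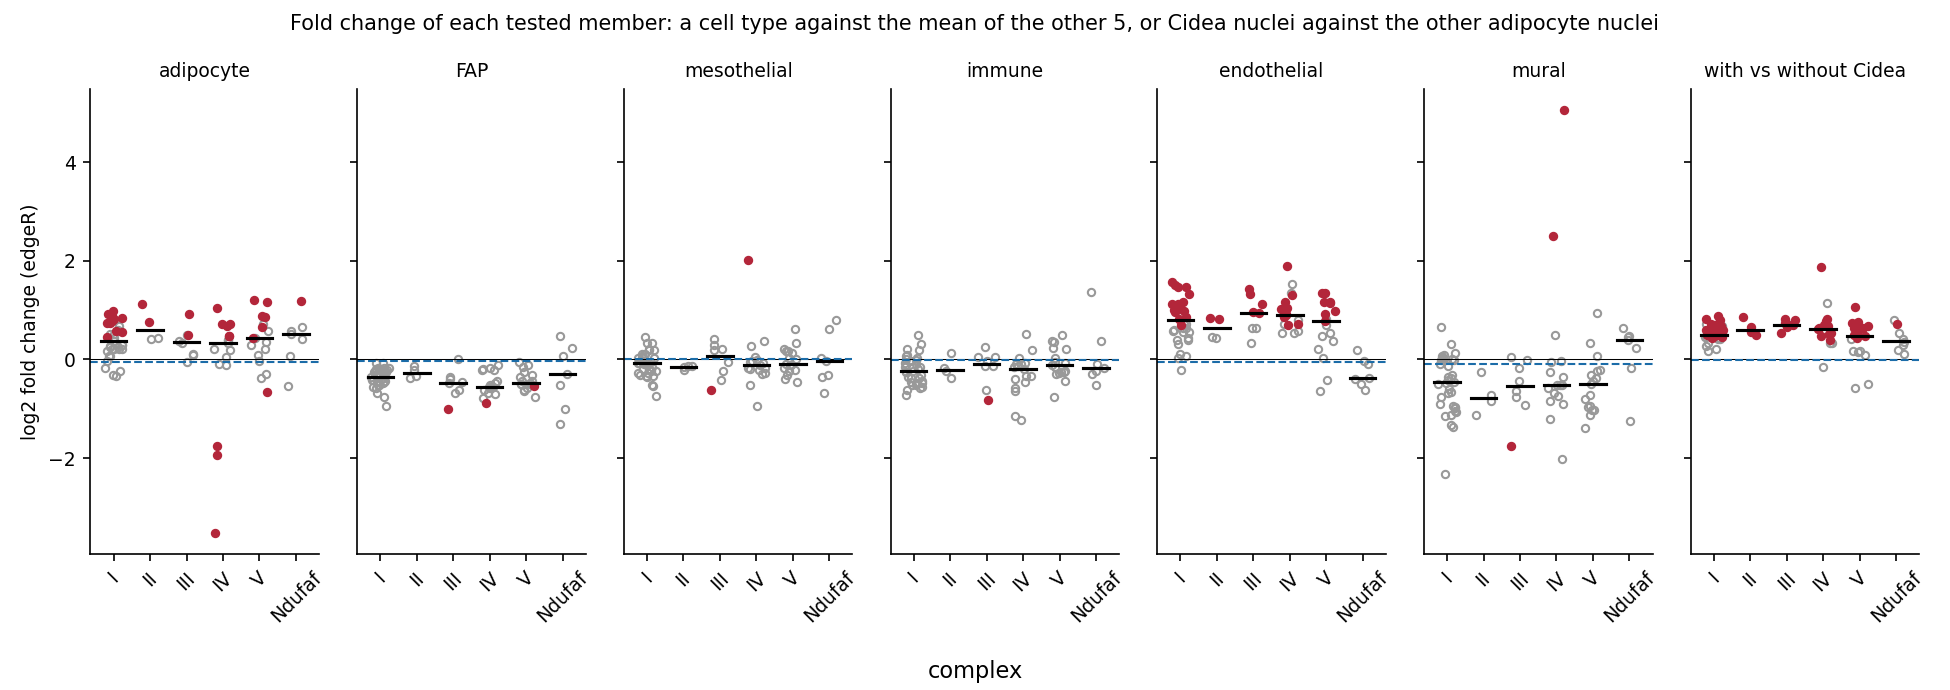
Log2 fold change of each tested gene by complex, in 7 panels: each of the 6 cell classes against the mean of the others, and adipocyte nuclei with against without Cidea. Filled red points were called at an edgeR adjusted p under 0.05, open grey points were not, black bars are medians per complex and the blue dashed line is the median of all genes tested. Endothelial subunits lie mostly above the line with 42 called, none of the 7 assembly factors is called there, and 59 genes are called for Cidea.

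The other restricted paralogs differed widely in level. Cox7b2 had 2.01 and 3.51 CPM in adipocytes, from 208 UMIs in all nuclei. Cox6a2, the muscle form of subunit 6a, had 5 UMIs in all nuclei of both libraries, and Cox8c 4. Cox8b was at 22.8 and 22.9 CPM in endothelial nuclei, 20.7 and 8.04 in adipocytes and 3.55 and 5.44 in FAPs, so that adipocytes and endothelial nuclei were alike in replicate 1 and apart in replicate 2.

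Within adipocytes, nuclei with a Cidea UMI were compared with those without, as Cidea marks adipocytes with thermogenic traits. Cidea was found in 194 of 1986 adipocyte nuclei in replicate 1 (9.77%, exact 95% interval 8.5 to 11.2) and 661 of 6981 in replicate 2 (9.47%, 8.79 to 10.2). The intervals cover counting error only. Thinned to 1000 UMIs per nucleus the shares were 4.23% and 3.15%. In other classes the unthinned shares were 2.33% and 2.18% in FAPs, with median depths of 1786 and 2090 UMIs against 2482 and 4280 in adipocytes, and between 0 and 5.71% over all other classes, or between 0 and 2.86% thinned. These shares stand for the background, and the adipocyte shares lay above them in both libraries. The 5.71% of endothelial nuclei in replicate 1 had an interval of 1.58 to 14, which covers the adipocyte share. Cidea stood there at 72.9 CPM, from 16 UMIs, against 75.8 in adipocytes, and in replicate 2 at 25.2 against 52.2. Nuclei with Cidea were deeper, with medians of 4032 UMIs against 2399.5 and 7000.0 against 4048.

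The nuclei with Cidea carried more RNA of all 5 complexes in both mice, and the change was broad and modest in size. Of 88 genes tested 59 were higher and 0 lower by edgeR's quasi-likelihood test, or 67% against 6.39% of all genes higher and 5.35% lower. At an unadjusted p under 0.05 there were 72 higher and 1 lower, and by DESeq2 26 and 0. The median log2 fold change was 0.54 against -0.01 over all 16144 genes. All 59 were above 0 in each library alone, as were 1023 of the 1031 genes of all kinds called higher. The calls came from these same libraries, so the agreement is no separate support. The fit had 4 sums and 1 residual degree of freedom, and the spread was borrowed across genes. With nuclei at or over 5% mitochondrial UMIs left out 13 of 87 were higher and 0 lower, against 2.98% of all genes higher. The median was then 0.42 against -0.03. Without the 1597 nuclei with no set of markers 32 of 88 were higher and 0 lower, against 3.79% of all genes higher. The median was 0.47 against -0.02 in that fit.

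Every tested gene of complexes II and III was called, 4 of 4 (median log2 0.60) and 8 of 8 (0.71), with 24 of 35 of complex I (0.50), 11 of 15 of complex IV (0.62) and 11 of 18 of complex V (0.48). Uqcrc1, a core subunit of complex III, had 134 CPM with and 67.1 without Cidea in replicate 1, and 64 and 44.2 in replicate 2 (log2 0.83, SE 0.14, adjusted p = 3.4e-07, edgeR). Sdhd, a membrane anchor of complex II, had 106 and 52.1, and 41.2 and 27.7 (0.87, SE 0.16, adjusted p = 2.9e-06, edgeR). Ndufc2 of complex I had 97.2 and 45.4, and 26.6 and 18.7 (0.88, SE 0.18, adjusted p = 2.4e-05, edgeR). For these subunits the difference was larger in replicate 1, whose nuclei without Cidea lay above the nuclei with Cidea of replicate 2, so the groups separate within each library and overlap across them. Atp5b had 449 and 266, and 163 and 131 (0.63, adjusted p = 9.2e-07, edgeR), and Sdha 274 and 191, and 229 and 174 (0.56, adjusted p = 3.7e-05, edgeR). Cox4i1 had 339 and 230, and 87.1 and 84.1 (0.40, adjusted p = 0.00949, edgeR), so that in replicate 2 it hardly differed. Ndufs4, with 263 and 182, and 254 and 209, also differed more in replicate 1 (0.49, adjusted p = 3.6e-04, edgeR).

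Cox8b changed most. It had 57.7 CPM with and 14.4 without Cidea in replicate 1, and 19.2 and 6.37 in replicate 2 (log2 1.87, SE 0.24, adjusted p = 1.8e-12, edgeR). Both values with Cidea lay above both values without. Of the 8 assembly factors 1 was called, Ndufaf4, with 76.9 and 45.4, and 108 and 73.2 CPM (0.73, SE 0.14, adjusted p = 1.5e-05, edgeR), and the median of the 8 was 0.38. Below 0 were Atp5g1 (-0.57, adjusted p = 0.521), Atp5o under ENSMUSG00000116933 (-0.50, adjusted p = 0.174) and Cox7b2 (-0.15, adjusted p = 0.932), none called by edgeR, while the other Atp5o entry, ENSMUSG00000022956, was called higher (1.07, SE 0.38, adjusted p = 0.0421, edgeR), and both Atp5o values are uncertain.

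Levels also followed the number of Cidea UMIs. The 99 genes stood at 5899, 7710.5, 8395 and 10592 CPM in nuclei with 0, 1, 2 and 3 or more Cidea UMIs in replicate 1, and at 3625, 4111, 4513 and 5346 in replicate 2. From 0 to 3 or more, complex II went from 391 to 855 and from 330 to 487, complex III from 599 to 1283 and from 350 to 609, complex I from 2037 to 3488 and from 1326 to 1904, complex IV from 1304 to 2411 and from 552 to 837, and complex V from 1401 to 2305 and from 871 to 1227. Each complex was higher in both mice. The assembly factors went from 167 to 251 and from 197 to 282. Ribosomal protein genes did not follow, at 2482 and 2237, and 1355 and 1169.9, and 0 of 79 were called by edgeR (2 higher and 1 lower at an unadjusted p under 0.05, none by DESeq2). The adipocyte markers were lower with 3 or more Cidea UMIs, at 11228 against 22069 and 14857 against 27025, and so were endothelial markers, at 48.2 against 104 and 40 against 86.7. The part of these markers was not tested.

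**Figure D4:**
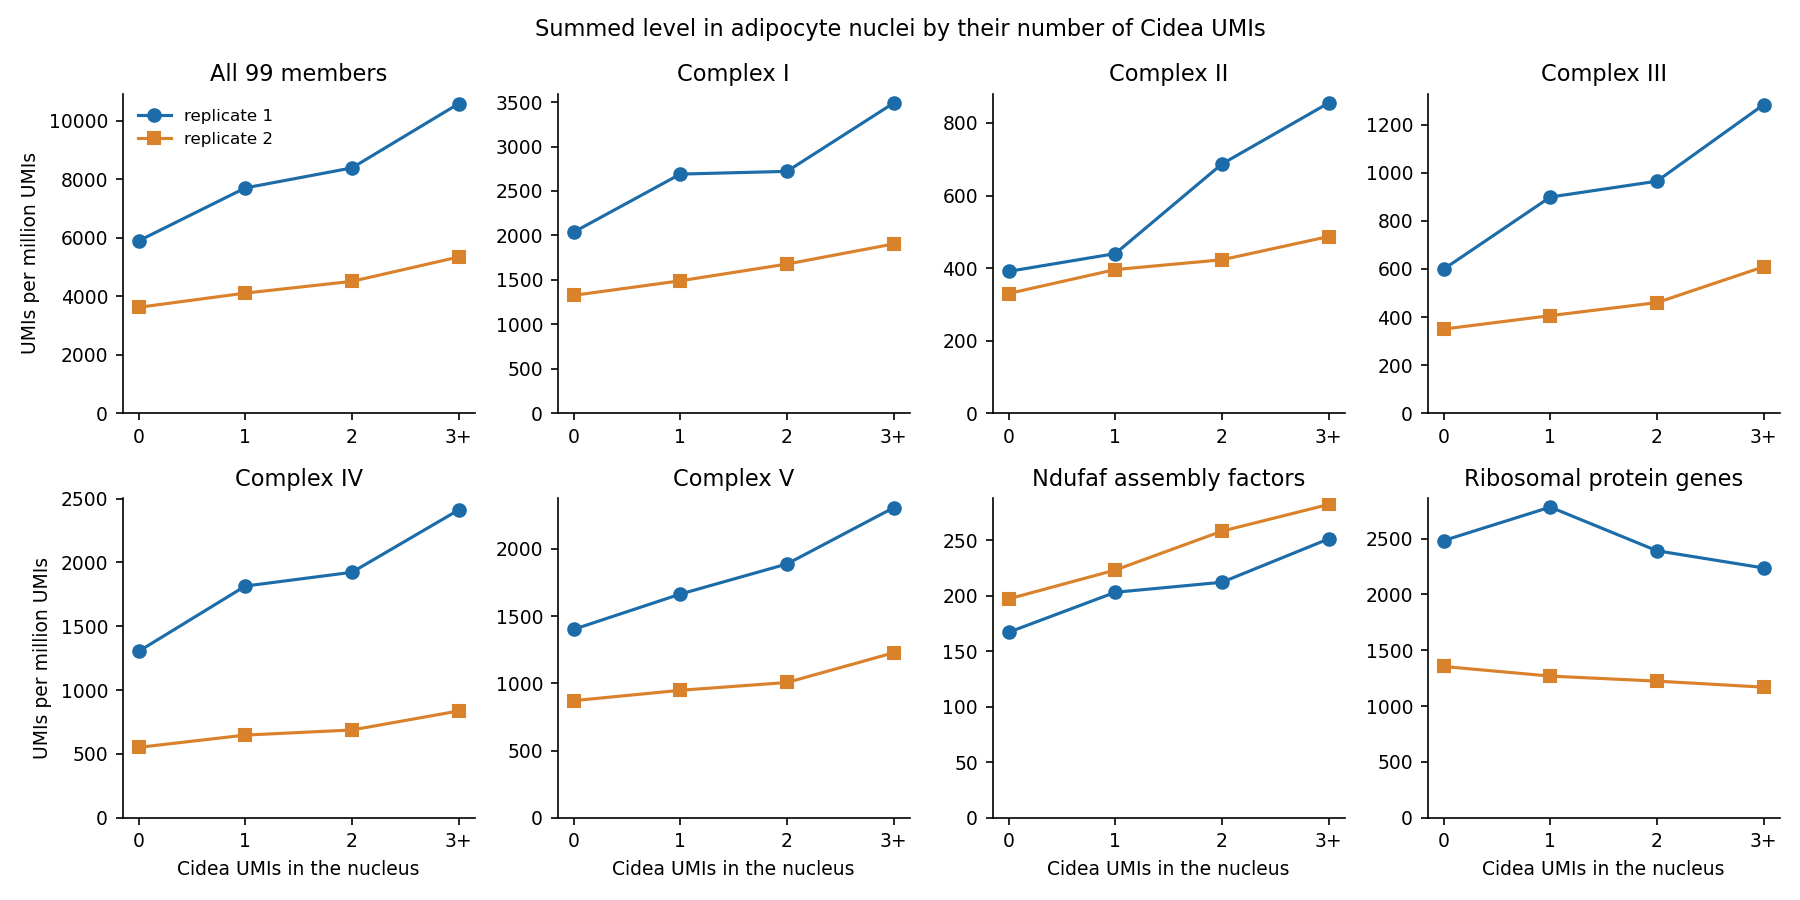
Level in CPM (linear axis) in adipocyte nuclei with 0, 1, 2 and 3 or more Cidea UMIs, 1 line per replicate, for all 99 genes, complexes I to V, the Ndufaf assembly factors and ribosomal protein genes. All 99 genes go from 5899 to 10592 in replicate 1 and from 3625 to 5346 in replicate 2, and ribosomal protein genes from 2482 to 2237 and from 1355 to 1169.9.

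The cycle and fatty acid oxidation genes moved further than the chain, and the other lists less far, save the thermogenic genes. Cycle genes were higher for 15 of 16 (median log2 0.72), fatty acid oxidation genes for 12 of 14 (0.89), electron carriers for 7 of 17 (0.42), other assembly factors for 8 of 38 (0.35), regulators for 6 of 14 (0.29) and mitochondrially encoded subunits for 7 of 8 (0.40). Ogdh, a subunit of the oxoglutarate dehydrogenase complex, had 235 and 108, and 251 and 126 CPM (1.15, SE 0.12, adjusted p = 6.4e-20, edgeR). Acaa2, the last enzyme of the fatty acid oxidation spiral, had 131 and 34.1, and 76.5 and 25.8 (1.82, SE 0.15, adjusted p = 1.8e-29, edgeR). Coq8a, of coenzyme Q synthesis, had 50.2 and 12.1, and 50.3 and 15.1 (1.94, SE 0.20, adjusted p = 1.6e-19, edgeR). For all 3 both values with Cidea lay above both without, and all 3 changed by more than every respiratory chain gene called other than Cox8b. Esrrg, the nuclear receptor that binds the ERR motif, had 280 and 32.5, and 357 and 46.7 CPM (3.10, SE 0.13, adjusted p = 1.7e-115, edgeR), and Ppargc1a 140 and 57.3, and 208 and 86.1 (1.38, SE 0.13, adjusted p = 4.2e-24, edgeR). Gabpa, a factor of the ETS family, had 67.3 and 34.1, and 48.1 and 32.3 (0.83, adjusted p = 4.0e-05, edgeR). Cox10, which makes the haem of complex IV, had 84.4 and 50.8, and 107 and 65.9 (0.81, adjusted p = 5.2e-07, edgeR).

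All 15 thermogenic genes were higher, Cidea among them by construction and Cox8b as a gene that is also one of the 99. Ucp1 had 87.6 and 5.95, and 84.5 and 2.66 CPM (4.71, SE 0.21, adjusted p = 6.3e-96, edgeR), and Prdm16 168 and 25.8, and 165 and 42.7 (2.33, adjusted p = 3.2e-58, edgeR). Cox7a1, the muscle and brown fat form of subunit 7a that stands outside the 99 genes, had 22.4 and 2.16, and 6.97 and 1.48 (2.81, SE 0.54, adjusted p = 9.5e-06, edgeR). Of the mitochondrially encoded subunits mt-Co1 had 3748 and 2438, and 138 and 114 CPM (0.57, adjusted p = 1.8e-06, edgeR). The gene mt-Nd3, called at 0.40 (adjusted p = 0.0283, edgeR), was lower with Cidea in replicate 2, at 7.84 against 10.1 CPM. Over nuclei with 3 or more Cidea UMIs the mitochondrially encoded total was higher than at 0 in replicate 1, at 71727 against 61982 CPM, and lower in replicate 2, at 4449 against 4953.

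Depth moved with Cidea, and the count of calls fell when depth was made alike. In quartiles of adipocyte nuclei by depth, the level of the 99 genes was higher with Cidea in 7 of 8, at ratios from 0.969 to 1.53. The exception was the shallowest quartile of replicate 2, at 3129 against 3229.6 CPM. With nuclei without Cidea drawn to the same depth 17 of 86 were called higher, against 2.88% of all genes. With every nucleus thinned to 1000 UMIs 1 of 85 was, Ndufaf1, against 0.758% of all genes, so this count is near the background. The median less that of all genes was 0.41 in both against 0.55. Thinned, Ndufc2 turned to -0.36 and mt-Co1 to -0.13. Fewer UMIs enter these sums. Without the library block 0 were called. The medians were 0.47 and 0.62 in single libraries.

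The span of a gene, introns included, was set beside these changes since nuclear RNA holds introns, and this comparison was chosen after values were seen. Among the 88 genes tested the log2 fold change rose with span in adipocytes (Spearman rho 0.39, against -0.03 over 13731 genes of all kinds) and fell with span in endothelial nuclei (-0.49, against -0.28). In the comparison by Cidea rho was -0.28, against -0.29 over 16042 genes. Below and above the median span of 9108 bases, 7 and 21 of 44 genes each were called higher in adipocytes, with median log2 fold changes of 0.25 and 0.49. In endothelial nuclei 25 and 17 were called, with medians of 0.95 and 0.58. For Cidea, at a median span of 9280.5 bases, 29 and 30 were called, with medians of 0.63 and 0.50. Short genes thus led in endothelial nuclei and long genes in adipocytes, while both parts were called alike for Cidea. In FAPs rho was 0.34 (0.02 over all genes), in mesothelial nuclei -0.39 (-0.01), in immune nuclei -0.06 (-0.05) and in mural nuclei 0.20 (0.20). Without paralogs and copies the values were 0.38, -0.47 and -0.21 for adipocytes, endothelial nuclei and Cidea. The points share libraries, genes are not independent replicates, and the part of span in the results was not tested.

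**Figure D5:**
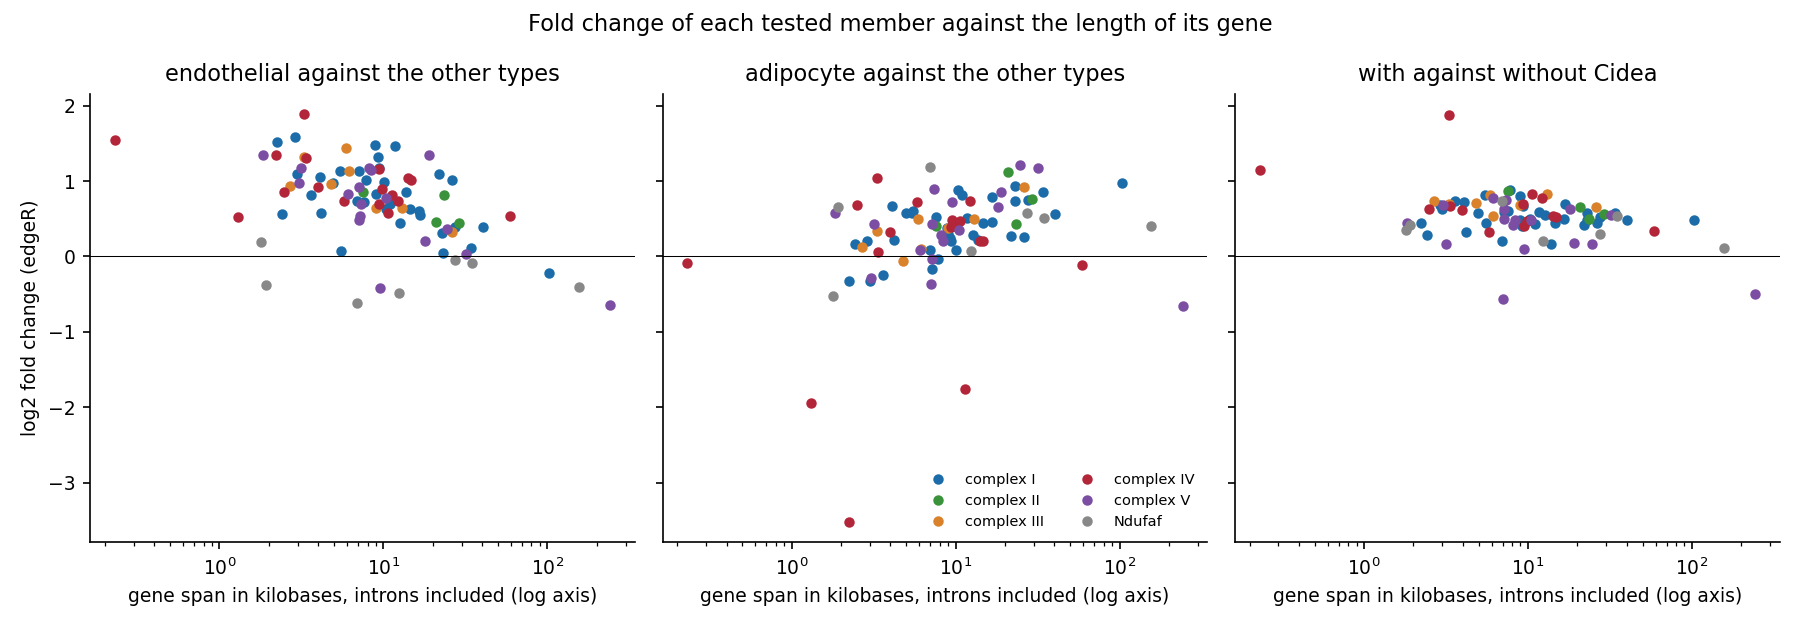
Log2 fold change against gene span (kilobases, log axis) for the tested genes, coloured by complex, in endothelial nuclei and adipocytes against the mean of the other classes and in adipocyte nuclei with against without Cidea. Each point is 1 gene. Spearman rho over the 88 tested genes is 0.39 in adipocytes, -0.49 in endothelial nuclei and -0.28 for Cidea.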

How the data were processed

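The deposited matrices hold counts, as whole UMIs per gene and called nucleus without normalization, which the authors made with CeleScope on GRCm39. The annotation version and the handling of introns are not given in the sources used here. Spans and transcript lengths came from GENCODE vM39. Counts were log scaled, and 1000 variable genes (without 344 genes, the members, lists, ribosomal and mitochondrial genes) gave 30 components, corrected for the library by an own Python implementation of the Harmony algorithm and clustered by Leiden (20 neighbours, resolution 0.1). The rule that turns markers into names was settled after the clusters had been seen. Scrublet marked 1 nucleus per library (0.0353% and 0.00818%) and so did not work. An alternative removed 170 and 734 nuclei with the highest scores.

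UMIs were summed per library and class (at least 20 nuclei in each library) and fitted in edgeR 4.0.16 (TMM, filterByExpr, quasi-likelihood F test, residual df 5 between classes) under R 4.3.3, tested on simulated data, with DESeq2 1.42.0 as an alternative. Python 3.11.15, scanpy 1.11.5, leidenalg 0.10.2 and scipy 1.17.1 were used, with seed 1. The library was a block because same-numbered classes come from 1 animal. Over 15 pairs of classes and 11492 genes their deviations correlated with r from 0.173 to 0.623.

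The naming rule took restricted paralogs, the 3 most abundant subunits of each complex, up to 5 called members with the largest changes in each direction, members called against their complex, and up to 4 called genes of each other list besides regulators and thermogenic genes. Other genes named, gene spans, motifs, the limit of 10000 CPM and the mitochondrial quartiles were chosen after values were seen. The members and lists were chosen with earlier results of these data known. The study's other samples were not analysed here. The text gives a part of the genes the rule took, and 1 result is not reported here.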

Additional observations from a re-analysis of the deposited data

How the results depend on the processing

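Counts of called genes and medians both depended on the settings, as did the share of all genes called. Medians are given less that of all genes. Adipocyte calls higher were 28, and 17 with DESeq2, 12 with plain totals, 15 with no replicate block, 45 with under 5% mitochondrial UMIs, 64 without the 6% of nuclei with the highest Scrublet scores, 46 at resolution 0.3, and, added after the data were seen, 47 without the nuclei of a cluster at that resolution with no set of markers and 52 without the top mitochondrial quartile. Calls lower were 4, and 7, 2 and 2 with plain totals, no block and no high scores. The median of 0.45 became 0.47 with DESeq2, 0.46 without mitochondrial genes, 0.12 without the filter, 0.57 without the block, 0.81 under 5%, 0.91 without high scores, 0.50 at resolution 0.3, 0.51 and 0.62 in the added alternatives, and 0.29 in single libraries.

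Without the block FAP calls were 0 in place of 3, mesothelial 0 in place of 2, immune 0 in place of 1, mural 1 in place of 3, endothelial 1 in place of 42 and Cidea 0 in place of 59. Other FAP counts were 1 (under 5%), 19 (no high scores), 9 (no integration) and 5 (top quartile), with a median of -0.39, -0.49 to -0.38 in single libraries and -0.30 without the top quartile. Mesothelial counts were 1 with DESeq2, 1 without the filter, 7 without high scores and 4 without the top quartile, and the median of -0.10 became -0.32 without the filter, -0.46 under 5%, 0.01 without high scores, 0.03 without the top quartile and -0.23 to -0.08 in single libraries. Under 5% the nuclei were clustered anew, and the mesothelial class held 76 and 3245 nuclei in place of 243 and 2121. Immune counts were 2 with plain totals, 0 under 5%, 10 without high scores, 2 at resolution 0.3 and 0 without the top quartile, with a median of -0.16, -0.23 without the filter, -0.26 to -0.20 in single libraries and -0.08 without the top quartile. Endothelial calls were 0 under 5% (median 0.35 against -0.13 over all genes) and 1 without the top quartile, and the median of 0.85 was 0.25 to 1.10 in single libraries and -0.03 without the top quartile. The mural median of -0.35 was 0.09 without the filter and -0.46 to 0.30 in single libraries.

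For Cidea, calls were 26 with DESeq2 (8 adjusted p not given), 31 with plain totals, 28 without the filter, 13 under 5%, 1 thinned, 17 at the same depth, 32 without the cluster with no markers and 31 without the top quartile. With at least 2 Cidea UMIs 1 gene, Atp5o, was lower in place of 0 by edgeR. The median of 0.55 was 1.08 without the filter, 0.41 thinned, 0.41 at the same depth and 0.72 with at least 2 UMIs, and 0.47 to 0.62 in single libraries. Against single libraries and alternatives, 20 of 1869 values of 135 named results reversed. Between single libraries mt-Nd6 ran from -1.59 to 0.01 and Gk from -0.25 to 1.34 in adipocytes, Mdh2 from -0.25 to 1.12 and Acadvl from -0.08 to 1.25 in endothelial nuclei, the low ends without replicate 2 except mt-Nd6, and mt-Nd3 from -0.27 to 0.61 for Cidea, low without replicate 1. The others were mt-Nd1 in mesothelial nuclei under 5% (-0.04), in endothelial nuclei without the top quartile Cox8b (-0.78), mt-Nd4 (-0.04), mt-Cytb (-0.06), mt-Nd2 (-0.07), Mdh2 (-0.01), Pdha1 (-0.29), Echs1 (-0.20), Acadvl (-1.41), Hadh (-0.06) and Acaa2 (-0.27), and for Cidea Ndufc2 (-0.36), mt-Co1 (-0.13), mt-Nd3 (-0.31) and mt-Nd2 (-0.31) thinned. Of the remaining values 1494 kept direction and call or, in single libraries, which have no call, stayed within 1 SD, 292 lost the call and 63, all in single libraries, moved by more. The causes were not tested. The median of all genes shifted by -0.31 in adipocytes, 0.15 in mural nuclei and -0.11 for Cidea with plain totals and by -0.14 in adipocytes with DESeq2. Single libraries have no residual degrees of freedom and give values with no test. Mural nuclei could not be tested under 5% or without the top quartile, nor endothelial and mural nuclei without high scores, where they shared a cluster, so the mean the remaining classes were compared with also changed in these alternatives. The mural class is limited by its 23 nuclei in replicate 1.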
